A study of Mus musculus with 10 samples.

Results

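A group of 35 genes that carry fatty acids from their release and uptake to their oxidation in mitochondria was followed in hearts of mice depleted of Ft1. The members were chosen by function and found by their symbols, and all 35 had a test in each of the 3 deposited tables, which together hold 17575 genes. The hearts came from male mice of 1 week of age and made 3 groups. There were 3 WT hearts, 3 Ft1ko hearts and 4 Ft1sm22ko hearts. Ft1 is a telomere factor whose mouse gene is Aktip. In Ft1ko mice a floxed Ft1 allele (Ft1F) had been recombined by CMV-cre, which acts in the whole body. In Ft1sm22ko mice the same floxed allele was recombined by sm22-cre, driven by the promoter of Tagln, a smooth muscle gene, so that cells that do not use this promoter keep Ft1. The promoter is also known to be active for a time in embryonic heart muscle. RNA of cardiac tissue was sequenced, and neither the labels nor the methods say which parts of the heart were taken. The question was how loss of Ft1 throughout the body compares with loss targeted to the vasculature.

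Heart muscle draws most of its energy from fatty acids, and in mice the genes for their oxidation rise around and after birth, when milk replaces glucose as the main fuel. A fatty acid is freed from triglyceride, crosses the plasma membrane, is joined to coenzyme A and enters the mitochondrion as a carnitine ester. There it is shortened in repeated turns of the beta oxidation spiral, each of which gives acetyl-CoA for the citric acid cycle and electrons for the respiratory chain. The nuclear receptors of the PPAR and ERR families, with the coactivator PGC-1, are known to drive many of these genes.

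The data collected are the authors' deposited tables, 1 for each pair of groups. Each gives for every gene a mean normalized count over both groups, a log2 fold change with its standard error (SE), and the Wald test of DESeq2, a count model. They hold no value for a single heart, so the spread between hearts, their overlap and the depth of each library are not known here. Group means were worked out from the mean and the fold change and carry no error. Each table was scaled on its own, so a WT mean differs between tables. The sign of a fold change is that of the mutant relative to WT, and in the comparison of the mutants that of Ft1sm22ko relative to Ft1ko. An adjusted p is the p of the authors' deposited DESeq2 table adjusted here by Benjamini-Hochberg over all genes with a test, and a gene was called at an adjusted p under 0.05. There were 16748 such genes for Ft1ko and 16661 for Ft1sm22ko, each set against WT, and 17169 for the mutants set against each other. Over these genes the log2 fold changes had medians of 0.13, 0.06 and -0.05. Aktip, the targeted gene, was lower than in WT in Ft1ko (log2 fold change -1.93, adjusted p = 5.08e-11) and in Ft1sm22ko (-1.21, adjusted p = 1.07e-04), in the direction the labels give.

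The WT group stood apart in genes of the atria, the upper chambers of the heart. Of 11 markers of atrial muscle 8 rose and 0 fell in Ft1ko, and 8 rose and 1 fell in Ft1sm22ko, with median log2 fold changes of 5.15 and 5.30. Their summed means were 2492 normalized counts in WT against 57206 in Ft1ko, and 3359 against 75522 in Ft1sm22ko. Myl7, an atrial myosin light chain, stood at 55.6 in WT and 18782 in Ft1ko, and Myl4, another one, at 128 and 11648. Sln, which restrains the calcium pump of atrial muscle, stood at 4.66 and 971, and Mybphl, an atrial filament protein, at 9.68 and 971. Defining genes of the atria were near absent in WT, so that the tissue compared with each mutant was not alike in this respect. Between the mutants 0 of 11 were higher and 2 were lower in Ft1sm22ko, with sums of 123158 in Ft1ko and 121652 in Ft1sm22ko. Of 6 markers of ventricular muscle 2 fell in each mutant, with sums of 219102 in WT against 37418 in Ft1ko, and 293814 against 187934 in Ft1sm22ko. Between the mutants 3 of these 6 were higher and 0 were lower in Ft1sm22ko, with a median log2 difference of 1.22. Their sums were 80498 in Ft1ko and 302679 in Ft1sm22ko, so the mutants were not alike in ventricular genes. The part of these differences in the values of the fatty acid genes, against WT or between the mutants, was not tested.

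In Ft1ko hearts most genes of the pathway were lower, but not at every step. In activation 1 of 5 genes fell and 3 rose, and in electron transfer 1 of 3 fell. Of the 35 members 27 fell, where 16.1% of all genes tested fell, and 4 rose, where 19.7% of all genes rose. The middle member had a log2 fold change of -1.50, with quartiles at -2.17 and -1.15. Ucp3, a mitochondrial carrier of muscle, fell most, and the acyl-CoA synthetases Acsl3, Acsl4 and Acsl5 and the carnitine palmitoyltransferase Cpt1a were the 4 that rose. In Ft1sm22ko hearts 9 members fell, where 16.0% of all genes tested fell, and 2 rose, where 16.2% rose. The median there was -0.44, with quartiles at -0.79 and 0.11. The 9 that fell were Lpl, Slc27a1, Cpt2, Etfb, Acot2, Acot13, Mlycd, Acacb and Ucp3, and the 2 that rose were Acsl4 and Cpt1a. Both comparisons rest on the same 3 WT hearts, so their values are set side by side and the difference between the mutants was read from their own comparison.

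Set directly against each other, the mutants differed in most members. In Ft1sm22ko hearts 29 members were higher than in Ft1ko hearts, where 10.8% of all genes tested were higher, and 2 were lower, where 9.00% of all genes were lower. The median log2 difference was 1.30, with quartiles at 0.98 and 1.54. The 2 that were lower, Acsl4 and Acsl5, are synthetases that had risen in Ft1ko, and 4 members did not pass, namely Acsl3, Acsl6, Cpt1a and Cpt1b.

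Genes of the heart muscle cell moved with the pathway. All 15 cardiomyocyte markers counted, among them Ttn, Ryr2, Tcap and Myh6, fell in Ft1ko, with a median of -2.46 on the log2 scale and a summed mean of 1632120 normalized counts in WT against 308033 in Ft1ko. In Ft1sm22ko 8 of 15 fell, with a median of -1.08 and sums of 2196043 against 921709. Between the mutants 12 of 15 were higher in Ft1sm22ko, with a median of 1.34. In bulk tissue, fewer cells of a type and less RNA per cell cannot be told apart. The part of the cardiomyocyte markers in the fall of the fatty acid genes was not tested.

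The calls depended on how strictly the p were read. With a Bonferroni adjustment 10 members fell and 0 rose in Ft1ko, where 4.04% of all genes fell and 4.94% rose. In Ft1sm22ko 3 fell and 1 rose, where 3.75% and 3.87% of all genes did. Between the mutants 10 were higher and 0 lower in Ft1sm22ko, where 1.53% and 0.926% of all genes were. With the Wald statistic read against a t distribution on 4, 5 and 5 degrees of freedom, 0 members passed after adjustment. Of all genes tested 0 passed as well, so this result is not particular to the members. By the same reading 28, 11 and 31 members had an unadjusted p under 0.05, and the share of all genes at that level was not counted. Reading against a t distribution leaves out what DESeq2 borrows from other genes to estimate the spread.

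**Figure D1:**
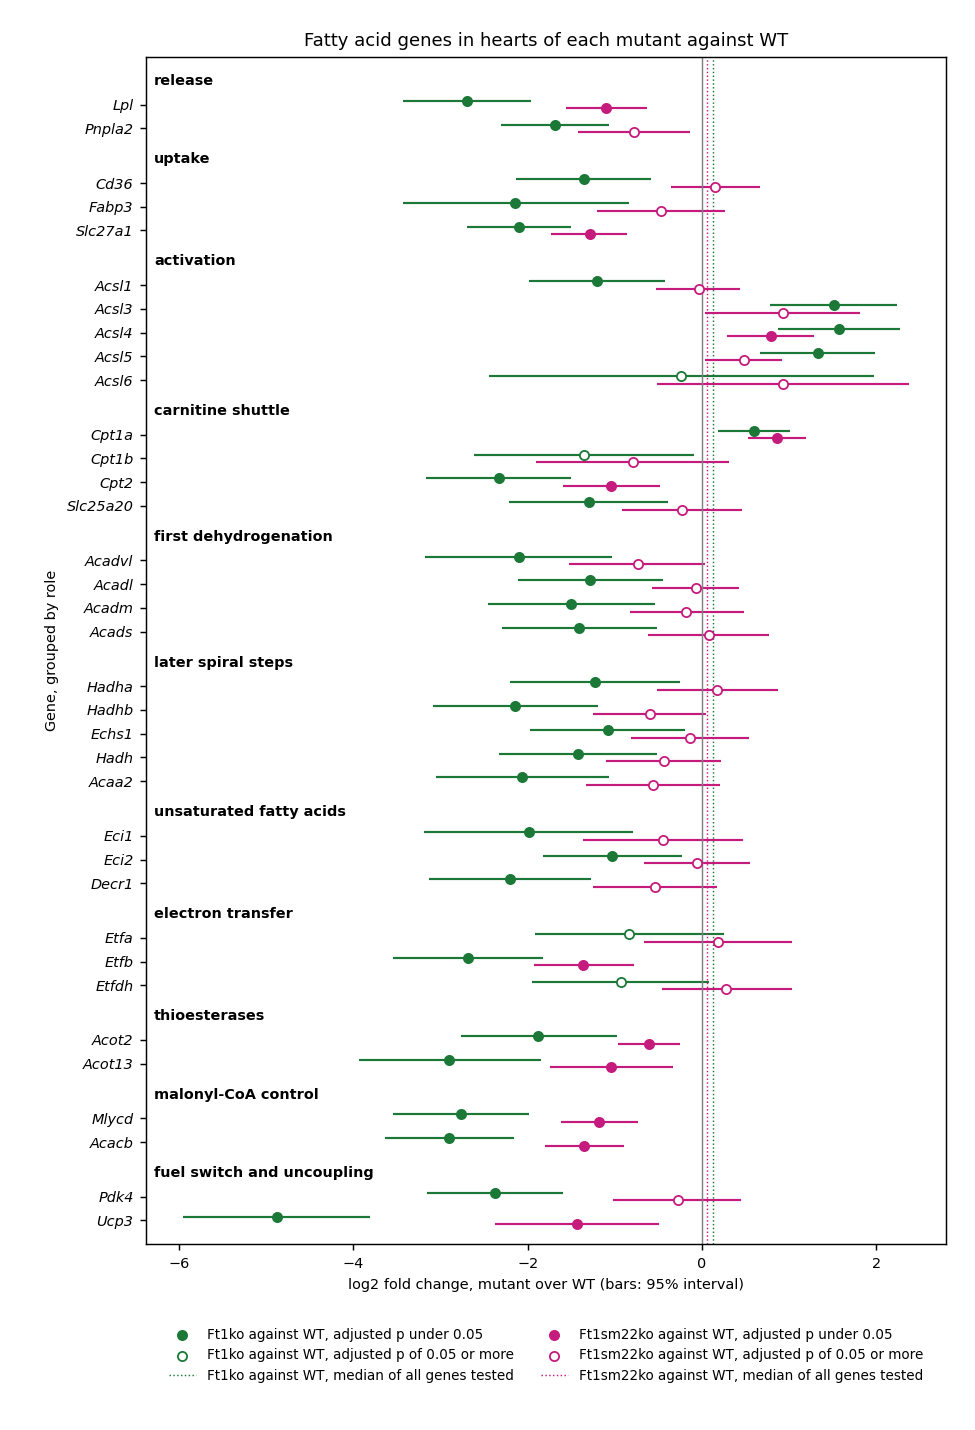
log2 fold change of each of the 35 fatty acid genes in Ft1ko (green) and Ft1sm22ko (magenta) hearts against WT, with bars for the 95% interval, filled points for an adjusted p under 0.05, and dotted lines for the median of all genes tested (0.13 and 0.06). The green points lie left of zero for 31 of 35 genes, and those of Acsl3, Acsl4, Acsl5 and Cpt1a lie right of it.

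The promoters of several members are shown because these genes moved together, or, in the case of Acsl1 and Acsl4, moved apart within a family. The sequences come from RefSeq on GRCm38.p6, not from the deposited tables, whose records name hg38 although the gene symbols are those of mouse. Of the 35 members 30 had an entry in that table of windows from 250 bases before to 50 bases after the start, and annotated exons were left out of what is printed. Capitals mark GGGCGG, a box bound by Sp1, on either strand, except in Acadm, where they mark AAGGTCA, the core of the ERR site, also on either strand. Ucp3, the member that fell most, lies at chr7:100472741-100472989 on the plus strand and holds no GGGCGG. Acadm, the medium-chain dehydrogenase, lies at chr3:153944644-153944893 on the minus strand. Hadha and Hadhb, the subunits of the trifunctional protein, start 273 bases apart on opposite strands of chromosome 5, and the stretch between their exons, chr5:30155163-30155247, is printed on the strand of Hadhb. Acsl1 lies at chr8:46470787-46471036 on the plus strand and Acsl4 at chrX:142390536-142390785 on the minus strand.
Ucp3: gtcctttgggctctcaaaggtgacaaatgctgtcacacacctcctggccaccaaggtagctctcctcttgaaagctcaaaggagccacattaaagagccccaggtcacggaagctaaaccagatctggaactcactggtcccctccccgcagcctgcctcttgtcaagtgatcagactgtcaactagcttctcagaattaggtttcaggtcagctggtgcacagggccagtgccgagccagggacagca
Acadm: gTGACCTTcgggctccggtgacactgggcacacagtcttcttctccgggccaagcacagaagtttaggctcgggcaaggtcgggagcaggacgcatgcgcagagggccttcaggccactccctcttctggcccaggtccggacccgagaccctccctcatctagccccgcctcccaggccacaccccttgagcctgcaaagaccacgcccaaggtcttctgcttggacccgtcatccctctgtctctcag
Hadhb and Hadha: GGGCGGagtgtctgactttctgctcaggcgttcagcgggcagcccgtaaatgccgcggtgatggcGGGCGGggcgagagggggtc
Acsl1: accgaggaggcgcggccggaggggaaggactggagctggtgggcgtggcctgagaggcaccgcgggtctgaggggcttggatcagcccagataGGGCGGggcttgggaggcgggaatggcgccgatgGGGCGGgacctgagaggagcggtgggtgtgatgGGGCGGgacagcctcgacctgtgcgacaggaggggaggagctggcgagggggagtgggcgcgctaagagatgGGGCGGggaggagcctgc
Acsl4: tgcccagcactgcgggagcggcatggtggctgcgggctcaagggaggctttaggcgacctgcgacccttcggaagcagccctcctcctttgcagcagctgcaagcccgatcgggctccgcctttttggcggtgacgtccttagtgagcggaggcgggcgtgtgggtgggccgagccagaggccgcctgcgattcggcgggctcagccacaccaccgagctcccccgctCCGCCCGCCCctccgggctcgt

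Searched as exact letters on both strands, GGGCGG was in 20 of the 30 member windows (66.7%), against 38.2% of the windows of 27025 genes. These genes were not limited to those measured in the hearts, nor matched for base content. The 20 include Acsl3, Acsl4 and Cpt1a, which rose in Ft1ko, and Acsl6 and Etfdh, which were not called there. AAGGTCA was in 3 of 30, those of Acacb, Acadm and Acsl6, against 5.38% of all genes. The longer ERR site TCAAGGTCA, which contains that core, was in that of Acsl6 (3.33% against 0.466%). The direct repeat of PPAR with RXR and the MEF2 site, searched in their common forms, were in 0 of 30, against 0.0481% and 4.23% of all genes. Windows of 300 bases hold only what lies next to the start, and a match is a description of letters.

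RNA of both genes counted for the release of fatty acids was lower in Ft1ko hearts. Lpl, the secreted lipase that frees fatty acids from circulating lipoproteins, had a mean of 33839 normalized counts in WT and 5225 in Ft1ko. Its log2 fold change was -2.70 (SE 0.38, adjusted p = 5.88e-11), which is 6.48-fold lower. In Ft1sm22ko it fell by 1.10 (SE 0.24, adjusted p = 4.72e-05), from 45489 to 21248, and the mutants differed by 1.60 (95% interval 1.05 to 2.16, adjusted p = 2.38e-06). Pnpla2, the lipase that opens the breakdown of stored triglyceride, fell by 1.69 in Ft1ko (SE 0.32, adjusted p = 2.03e-06). In Ft1sm22ko its log2 fold change of -0.78 narrowly missed the threshold (SE 0.33, adjusted p = 0.0532). It was higher in Ft1sm22ko than in Ft1ko by 0.92 (adjusted p = 0.0251).

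The 3 uptake genes all fell in Ft1ko and were all higher in Ft1sm22ko than in Ft1ko. Cd36, the membrane protein that takes up long-chain fatty acids, went from 8331 normalized counts in WT to 3266 in Ft1ko, a log2 fold change of -1.35 (adjusted p = 0.00324). In Ft1sm22ko its log2 fold change was 0.15 (95% interval -0.36 to 0.66, adjusted p = 0.700), and it was 2.84-fold higher there than in Ft1ko (adjusted p = 3.64e-06). Fabp3, the fatty acid binding protein of heart cytosol, fell by 2.14 in Ft1ko, from 58064 to 13205 (adjusted p = 0.00558). In Ft1sm22ko it had a log2 fold change of -0.47 (95% interval -1.20 to 0.26, adjusted p = 0.347), and the mutants differed by 1.67 (adjusted p = 0.0110). Slc27a1, a fatty acid transport protein of the plasma membrane, fell in both mutants. The fall was 4.29-fold in Ft1ko (log2 -2.10, adjusted p = 4.43e-10) and 2.45-fold in Ft1sm22ko (log2 -1.29, adjusted p = 1.94e-07). The difference between the mutants was smaller for it, at 0.82 (adjusted p = 0.0163).

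Members of the activation step moved in opposite directions. The acyl-CoA synthetases join coenzyme A to long-chain fatty acids. Acsl1, the form that heart muscle uses for oxidation, fell by 1.21 in Ft1ko (SE 0.40, adjusted p = 0.00983), from 6566 to 2846 normalized counts. In Ft1sm22ko it had a log2 fold change of -0.04 (95% interval -0.53 to 0.44), and it was higher there than in Ft1ko by 1.17 (adjusted p = 0.00166). Acsl4, which prefers arachidonic acid, rose by 1.57 in Ft1ko (SE 0.36, adjusted p = 1.02e-04), from 166 to 494, and by 0.79 in Ft1sm22ko (SE 0.25, adjusted p = 0.00909), from 224 to 386. It was 1.73-fold lower in Ft1sm22ko than in Ft1ko (adjusted p = 0.0476). Acsl5, of mitochondria and endoplasmic reticulum, rose by 1.33 in Ft1ko (adjusted p = 5.68e-04). It had a log2 fold change of 0.48 in Ft1sm22ko (adjusted p = 0.0954), and was 1.81-fold lower there than in Ft1ko (adjusted p = 5.54e-04). Acsl3, found on lipid droplets, rose by 1.51 in Ft1ko (adjusted p = 3.70e-04) and had a log2 fold change of 0.93 in Ft1sm22ko (adjusted p = 0.101). The mutants differed by -0.57 in Acsl3 (95% interval -1.32 to 0.19, adjusted p = 0.320). Acsl6, a form known from brain, was near the limit of measurement, with means of 6.91 normalized counts in WT and 5.87 in Ft1ko, and passed in no comparison (adjusted p of 0.892, 0.355 and 0.172).

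Per kilobase of transcript, Acsl1 made 93.3% of the summed level of the 5 synthetases in WT and 69.1% in Ft1ko. The shares of Acsl5, Acsl4 and Acsl3 were 3.52%, 1.74% and 1.41% in WT and 15.1%, 8.84% and 6.87% in Ft1ko. In the table of Ft1sm22ko, Acsl1 made 93.2% in WT and 89.4% in Ft1sm22ko. These shares come from worked-out means, have no error and were not tested. Of markers of other cells, all 8 fibroblast markers counted rose in Ft1sm22ko and 6 of 8 in Ft1ko, with summed means of 31894 normalized counts in WT against 106597 in Ft1ko, and 42957 against 154483 in Ft1sm22ko. Their part in the rise of the synthetases was not tested.

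**Figure D2:**
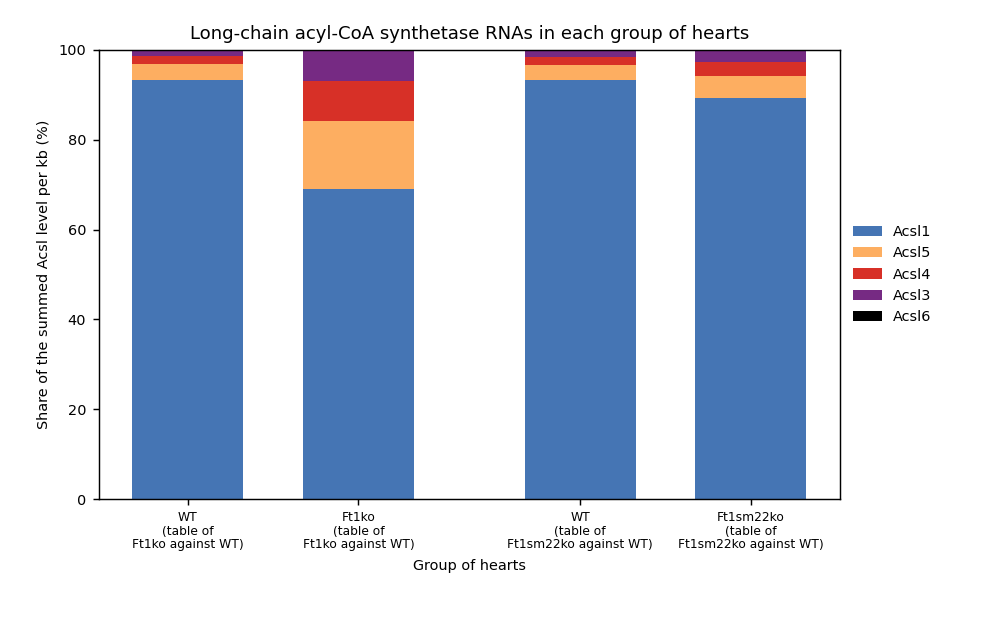
Share in percent of each long-chain acyl-CoA synthetase RNA in the summed level per kilobase of the family, for the groups of the tables Ft1ko against WT and Ft1sm22ko against WT, from group means without error. The Acsl1 block is 93.3% in WT and 69.1% in Ft1ko in the former table, and 93.2% in WT and 89.4% in Ft1sm22ko in the latter.

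The carnitine shuttle also moved both ways. Cpt1a, the outer membrane transferase best known from liver, was the 1 shuttle gene that rose, by 0.60 in Ft1ko (SE 0.21, adjusted p = 0.0167), from 656 to 991 normalized counts. In Ft1sm22ko Cpt1a rose by 0.86 (SE 0.17, adjusted p = 6.61e-06), from 884 to 1606, and the mutants differed by 0.27 (95% interval -0.06 to 0.60, adjusted p = 0.267). Cpt1b, the transferase of adult muscle, was measured at a mean of 20.3 normalized counts in WT and 7.96 in Ft1ko and was not called (adjusted p of 0.0870, 0.290 and 0.538). Cpt1b shares 81.4% of its exon bases with Gm44502, a gene on the same strand that has no row in the tables, and how such reads were counted was not tested. Cpt2, the inner membrane transferase that frees acyl-CoA in the matrix, went from 2972 to 589 in Ft1ko, a log2 fold change of -2.33 (adjusted p = 9.71e-07), and from 3991 to 1944 in Ft1sm22ko, a log2 fold change of -1.04 (adjusted p = 0.00167). Slc25a20, the carrier that exchanges acylcarnitine for carnitine, fell by 1.30 in Ft1ko (adjusted p = 0.0176) and had a log2 fold change of -0.23 in Ft1sm22ko (adjusted p = 0.656). Cpt2 and Slc25a20 were both higher in Ft1sm22ko than in Ft1ko, by 1.30 and 1.07 (adjusted p = 0.00114 and 7.21e-04).

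All 4 dehydrogenases that open a turn of the spiral fell in Ft1ko, and none of them passed in Ft1sm22ko by the DESeq2 test. They divide the work by chain length. Acadvl, for very long chains, fell by 2.10 (SE 0.55, adjusted p = 8.49e-04), from 15050 to 3502 normalized counts, though 42.9% of its exon bases overlap Dvl2 on the opposite strand. Acadl, for long chains, fell by 1.28 (SE 0.42, adjusted p = 0.0104), from 12518 to 5169. Acadm, for medium chains, fell by 1.50 (SE 0.49, adjusted p = 0.00892), from 6899 to 2436. Acads, for short chains, fell by 1.41 (SE 0.46, adjusted p = 0.00837), from 1571 to 592. The intervals of the 4 genes in Ft1ko overlapped, so they gave no order by chain length. In Ft1sm22ko their log2 fold changes were -0.74 for Acadvl (95% interval -1.53 to 0.04), -0.07 for Acadl (-0.57 to 0.43), -0.18 for Acadm (-0.83 to 0.48) and 0.08 for Acads (-0.62 to 0.77). Between the mutants the 4 genes differed by 1.21 to 1.49, Acads with the smallest adjusted p (5.49e-06) and Acadl with the largest (0.00364).

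The later steps of the spiral showed the same in all 5 genes. Hadha and Hadhb encode the subunits of the trifunctional protein of the inner membrane and share the short promoter stretch printed above. Hadhb fell by 2.14 in Ft1ko (SE 0.48, adjusted p = 8.97e-05), from 9677 to 2191 normalized counts, and Hadha fell by 1.23 (SE 0.50, adjusted p = 0.0407), from 11248 to 4811. The intervals of Hadhb (-3.09 to -1.19) and Hadha (-2.20 to -0.25) overlap, and a difference between the subunits was not tested. Acaa2, the matrix thiolase that cuts off acetyl-CoA, fell by 2.06 (adjusted p = 3.31e-04), Hadh, a dehydrogenase of medium and short chains, by 1.42 (adjusted p = 0.00853), and Echs1, the short-chain hydratase, by 1.08 (adjusted p = 0.0468). In Ft1sm22ko the 5 genes had log2 fold changes from -0.60 (Hadhb, adjusted p = 0.155) to 0.17 (Hadha, adjusted p = 0.750), and none passed. All 5 were higher in Ft1sm22ko than in Ft1ko, from 0.95 for Echs1 (adjusted p = 0.00166) to 1.55 for Hadhb (adjusted p = 2.18e-04).

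Enzymes that prepare unsaturated fatty acids for the spiral also fell in Ft1ko. Decr1, the dienoyl-CoA reductase, fell by 2.20 (SE 0.47, adjusted p = 3.86e-05), from 4877 to 1063 normalized counts. Eci1 and Eci2, isomerases that move the unsaturated bond, fell by 1.99 (adjusted p = 0.00538) and 1.03 (adjusted p = 0.0343). In Ft1sm22ko the log2 fold changes were -0.54 for Decr1, -0.45 for Eci1 and -0.06 for Eci2 (adjusted p = 0.257, 0.495 and 0.911). Decr1, Eci1 and Eci2 were higher in Ft1sm22ko than in Ft1ko by 1.66, 1.54 and 0.97 (adjusted p = 1.41e-05, 7.42e-04 and 4.19e-05).

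Joined after their values were seen, the 12 enzymes of the spiral and of unsaturated fatty acids had a median log2 fold change of -1.46 in Ft1ko, where 12 of 12 fell. In Ft1sm22ko 0 of 12 passed the DESeq2 test, with a median of -0.31, a range of -0.74 to 0.17 and 95% intervals that reach from -1.53 to 0.87, so that none was shown to be unchanged. The other 23 members had medians of -1.69 in Ft1ko, where 15 fell, and -0.47 in Ft1sm22ko, where 9 fell.

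Electron transfer from the dehydrogenases was called in 1 of 3 genes in Ft1ko. Etfb, the beta subunit of the electron transfer flavoprotein, fell by 2.69 (SE 0.44, adjusted p = 2.53e-08), from 15130 to 2345 normalized counts, and by 1.36 in Ft1sm22ko (SE 0.29, adjusted p = 4.50e-05). Its value is less sure than others, since 53.0% of its exon bases are shared with Gm45233, a gene on the same strand with no row in the tables. Etfa, the alpha subunit, had log2 fold changes of -0.84 in Ft1ko (95% interval -1.92 to 0.25, adjusted p = 0.241) and 0.18 in Ft1sm22ko (adjusted p = 0.787). Etfdh, which passes the electrons on to ubiquinone, had -0.93 (95% interval -1.95 to 0.08, adjusted p = 0.152) and 0.28 (adjusted p = 0.611). Set against Ft1ko, Ft1sm22ko was higher in all 3, by 1.02 for Etfa, 1.34 for Etfb and 1.22 for Etfdh (adjusted p = 0.00192, 0.00106 and 0.00165).

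The thioesterases and the genes of malonyl-CoA fell in each mutant. Acot13, a thioesterase that frees fatty acid from acyl-CoA, fell by 2.90 in Ft1ko (SE 0.53, adjusted p = 1.12e-06), from 4011 to 539 normalized counts, and by 1.04 in Ft1sm22ko (SE 0.36, adjusted p = 0.0159). Acot2, its counterpart of the mitochondrial matrix, went from 2235 to 609 in Ft1ko, a log2 fold change of -1.88 (adjusted p = 2.87e-04), and from 3009 to 1973 in Ft1sm22ko, a log2 fold change of -0.61 (adjusted p = 0.00438). Acacb makes the malonyl-CoA that holds back the transferases of the outer membrane, and Mlycd removes it. Acacb fell by 2.90 in Ft1ko (SE 0.38, adjusted p = 1.51e-12), from 4893 to 657, and by 1.35 in Ft1sm22ko (SE 0.23, adjusted p = 2.52e-07), from 6614 to 2601. Mlycd fell by 2.76 in Ft1ko (SE 0.40, adjusted p = 1.70e-10), from 2269 to 334, and by 1.18 in Ft1sm22ko (SE 0.22, adjusted p = 2.71e-06), from 3055 to 1350. The maker and the remover of malonyl-CoA lay within 1 SE of each other in each mutant. The difference between the mutants was 1.86 for Acot13, 1.28 for Acot2, 1.57 for Acacb and 1.60 for Mlycd (adjusted p = 4.00e-05, 0.00759, 2.28e-05 and 2.42e-04).

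Pdk4 and Ucp3, both known to rise in muscle that burns fatty acids, had the largest differences between the mutants among the 35 members, by their point values. Ucp3 had a mean of 2465 normalized counts in WT and 83.4 in Ft1ko. Its log2 fold change was -4.88 (SE 0.55, 95% interval -5.96 to -3.81, adjusted p = 1.45e-16), which is 29.5-fold lower. In Ft1sm22ko it fell by 1.43 (SE 0.48, adjusted p = 0.0128), from 3322 to 1236, and it was 11.1-fold higher there than in Ft1ko (adjusted p = 5.95e-06). Pdk4, the kinase that turns off pyruvate dehydrogenase, fell by 2.38 in Ft1ko (SE 0.40, adjusted p = 5.65e-08), from 7056 to 1359. In Ft1sm22ko the log2 fold change of Pdk4 was -0.28 (95% interval -1.02 to 0.45, adjusted p = 0.607), and it was 4.30-fold higher there than in Ft1ko (adjusted p = 1.64e-05).

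**Figure D3:**
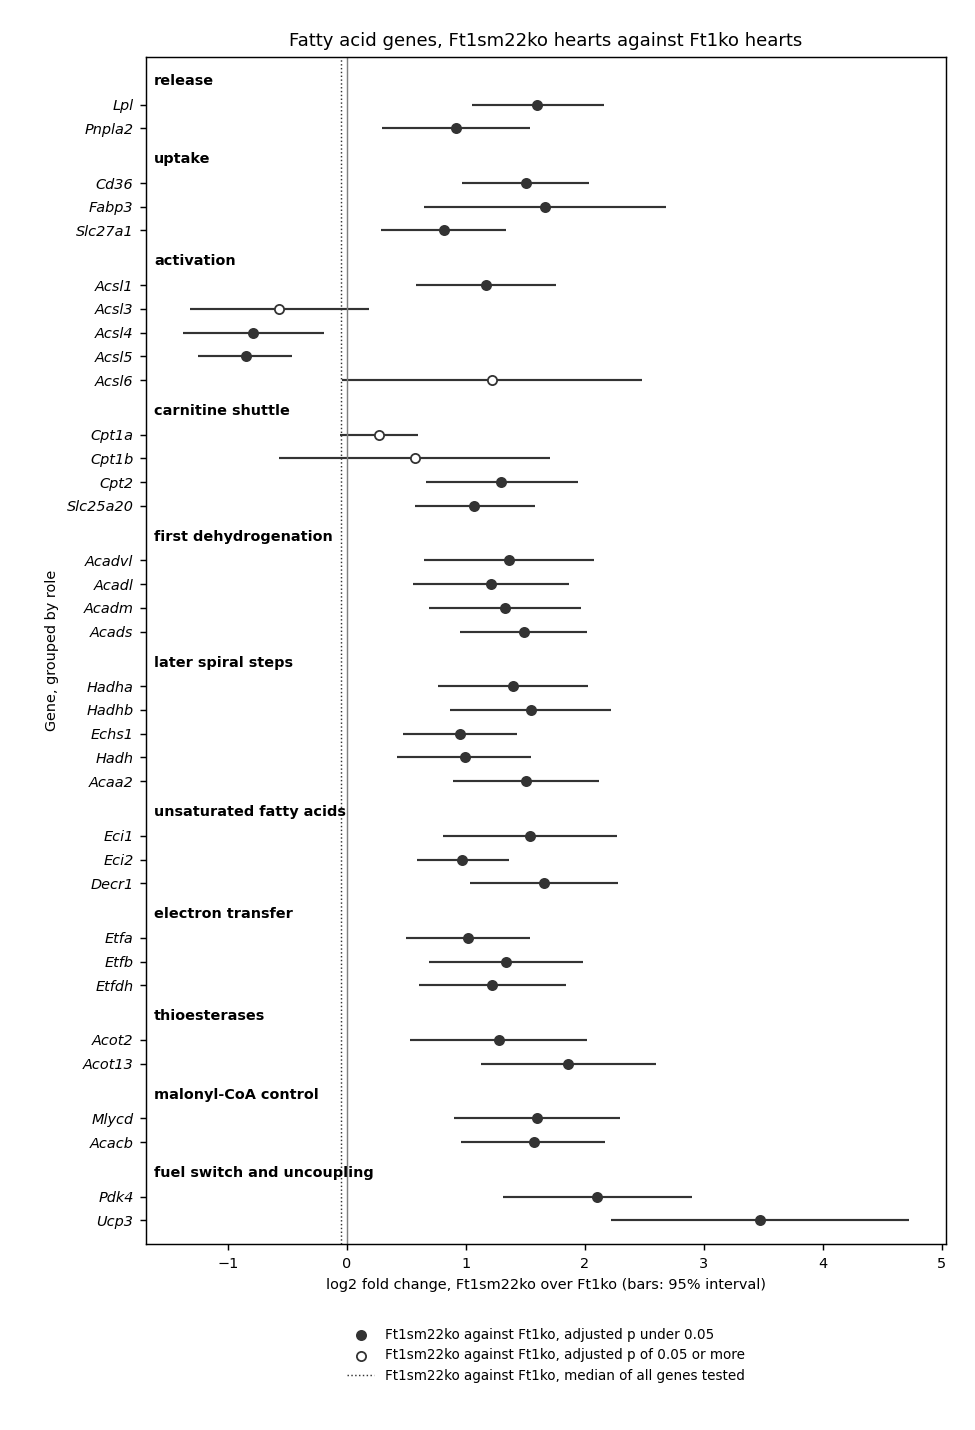
log2 fold change of each of the 35 fatty acid genes in Ft1sm22ko over Ft1ko hearts, with bars for the 95% interval, filled points for an adjusted p under 0.05, and a dotted line for the median of all genes tested (-0.05). Most points lie between 0.8 and 2 and Ucp3 lies farthest right at 3.47, while Acsl3, Acsl4 and Acsl5 lie left of zero.

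Per kilobase of transcript, the members covered a wide range of levels in WT. Fabp3 was the most abundant, at 70551 normalized counts per kilobase, followed by Etfb at 16943, Lpl at 8223 and Acaa2 at 8090. Acsl6 at 1.19 and Cpt1b at 7.02 were the lowest, and Cpt1a stood at 152. Cpt1b and Etfb share 81.4% and 53.0% of their exon bases with another gene on the same strand. How such reads were counted was not tested, so the levels of Cpt1b and Etfb cannot be safely set against those of other members. In Ft1ko Fabp3 remained the highest at 16044, and Ucp3 went from rank 26 of 35 in WT to rank 33. Acsl5 went from rank 31 to 28. In Ft1sm22ko Ucp3 held rank 28. These levels have no error, so that neighbours in the order cannot be told apart.

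Other genes of lipid handling moved less evenly. Of 6 partners of lipoprotein lipase, 4 fell and 1 rose in Ft1ko, and 3 fell in Ft1sm22ko. Vldlr, a lipoprotein receptor, fell by 1.60 in Ft1ko (adjusted p = 8.05e-07), and Lmf1, which folds the lipase, fell by 1.30 (adjusted p = 4.07e-06). Gpihbp1, which holds the lipase on the capillary wall, fell by 1.25 in Ft1ko (adjusted p = 0.0201) and had a log2 fold change of -0.14 in Ft1sm22ko (adjusted p = 0.715). Of 17 genes of lipid droplets, 7 fell and 2 rose in Ft1ko, and 6 fell and 3 rose in Ft1sm22ko. Of all genes tested 16.1% fell and 19.7% rose in Ft1ko, and 16.0% fell and 16.2% rose in Ft1sm22ko. The droplet genes that rose, 11.8% in Ft1ko and 17.6% in Ft1sm22ko, were below and near those shares. Lpin1, a phosphatase of triglyceride synthesis, and Plin4, a droplet coat protein, fell by 2.79 and 2.57 in Ft1ko (adjusted p = 1.24e-34 and 2.45e-16). Cidec, a droplet protein of fat cells, rose by 6.32 from a mean of 1.81 to 145 normalized counts (adjusted p = 3.51e-09).

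Of 16 genes of peroxisomal oxidation, 6 fell and 1 rose in Ft1ko, with a median of -0.43. Of the 15 tested in Ft1sm22ko 4 fell, with a median of -0.24. These falls are 37.5% and 26.7%, where 16.1% and 16.0% of all genes fell. The rise in Ft1ko is 6.25%, where 19.7% of all genes rose. Acaa1a, the peroxisomal thiolase, fell by 1.50 and 1.10 (adjusted p = 2.98e-07 and 1.90e-07). Of 16 other genes of mitochondrial acyl-CoA metabolism tested, 3 fell in Ft1ko, with a median of -0.63, and 1 fell and 1 rose in Ft1sm22ko. The 3 are 18.8%, near the 16.1% of all genes that fell in Ft1ko. In Ft1sm22ko 6.25% went each way, where 16.0% of all genes fell and 16.2% rose. Most of the called genes of fatty acid synthesis went the other way. Of 12 counted, 7 rose and 2 fell in Ft1ko, with a median of 1.24, and 7 rose and 1 fell in Ft1sm22ko, with a median of 0.86. Scd2, a desaturase, rose by 2.09 and 1.16 (adjusted p = 4.51e-15 and 3.14e-04), and Scd1, its relative, by 3.88 and 1.46 (adjusted p = 2.59e-11 and 4.57e-05). Acly, which makes cytosolic acetyl-CoA, rose by 1.32 and 0.94 (adjusted p = 1.17e-05 and 1.12e-05). Mlxipl, a transcription factor of glycolytic and lipid synthesis genes, fell by 2.98 and 2.51 (adjusted p = 3.63e-12 and 9.72e-16).

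Genes of the other parts of energy supply were mostly lower in Ft1ko as well. In the respiratory chain 24 of 25 genes fell in Ft1ko (median -1.92) and 8 in Ft1sm22ko (median -0.55), and 24 were higher in Ft1sm22ko than in Ft1ko. In the citric acid cycle 13 of 17 fell in Ft1ko (median -1.45) and 1 in Ft1sm22ko (median -0.33), and 15 were higher in Ft1sm22ko. Of 19 genes of glycolysis tested, 10 fell and 2 rose in Ft1ko (median -0.92), and 5 fell and 3 rose in Ft1sm22ko (median -0.39). Of 12 genes around pyruvate dehydrogenase 7 fell and 1 rose in Ft1ko (median -1.26), and 2 fell and 2 rose in Ft1sm22ko (median -0.14). Of all genes tested 16.1% fell and 19.7% rose in Ft1ko, and 16.0% fell and 16.2% rose in Ft1sm22ko. Between the mutants 10.8% of all genes were higher in Ft1sm22ko. In Ft1sm22ko the genes around pyruvate dehydrogenase, at 16.7% each way, and the rises in glycolysis, at 15.8%, were near those shares. The fall in the citric acid cycle there, at 5.88%, was below them. The medians of the fatty acid members, -1.50 and -0.44, lay among those of these lists, and a difference between lists was not tested.

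**Figure D4:**
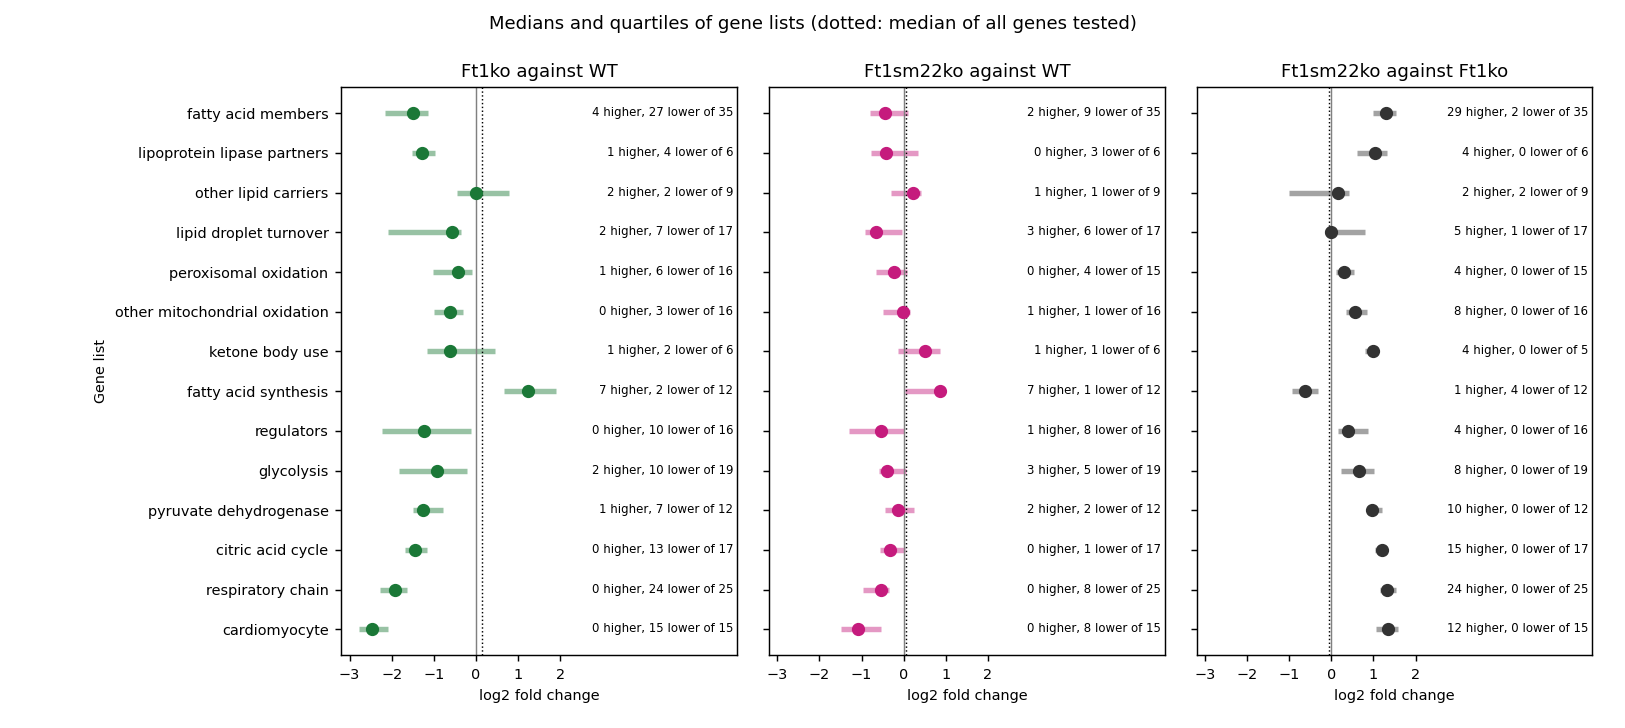
Median (points) and quartiles (bars) of the log2 fold change of the fatty acid members and of other gene lists in the 3 comparisons, with the number of genes called in each direction, and dotted lines for the median of all genes tested. The fatty acid members lie at -1.50, -0.44 and 1.30, the cardiomyocyte markers at -2.46, -1.08 and 1.34, and fatty acid synthesis lies on the opposite side at 1.24, 0.86 and -0.62.

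Of 16 regulators of oxidative genes 10 fell in Ft1ko and 8 fell and 1 rose in Ft1sm22ko, with medians of -1.24 and -0.53. Rxrg, a partner of PPAR receptors, fell by 3.69 and 1.49 (adjusted p = 1.14e-26 and 9.54e-04). Esrra, the receptor ERR alpha, fell by 2.26 and 1.60 (adjusted p = 6.09e-09 and 1.14e-09), and Ppara, the PPAR form of oxidative tissue, by 2.23 and 1.28 (adjusted p = 1.33e-06 and 2.21e-04). Ppargc1b, which encodes a PGC-1 coactivator, fell by 2.90 and 3.49 (adjusted p = 1.51e-05 and 1.01e-12). Between the mutants 4 of the 16 regulators were higher in Ft1sm22ko and 0 were lower by the DESeq2 test (1 of the 4, Rxrg, by 2.20, adjusted p = 4.50e-06). The part of the regulators in the fall of the members was not tested.

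Markers of some tissues next to or within the heart differed between the groups as well. All 8 markers of lung epithelium rose in Ft1ko, with a summed mean of 465 normalized counts in WT and 48901 in Ft1ko. In Ft1sm22ko 6 of these 8 had no p, which DESeq2 withholds where a library holds an extreme count. Of the 2 with a p 1 rose and 1 fell, and the summed mean of the 8 was 638 in WT and 3871 in Ft1sm22ko. Between the mutants 4 of the 8 lung markers were lower in Ft1sm22ko, with sums of 105964 in Ft1ko and 6079 in Ft1sm22ko. Of 9 fat markers 5 rose and 2 fell in Ft1ko and 4 rose and 1 fell in Ft1sm22ko, with Plin1 at 3.28 normalized counts in WT and 238 in Ft1ko. In each mutant 7 of the 9 fat markers had a fold change above zero. The summed mean of the fat list went from 17496 to 8814 in Ft1ko and from 23521 to 19075 in Ft1sm22ko, but Fabp4, singled out after its values were seen and also used by capillary endothelium, made most of it. Without Fabp4 the sum turned direction in Ft1ko, from 1280 to 1696, and went from 1730 to 1329 in Ft1sm22ko. Of 9 markers of brown fat, a tissue that also burns fatty acids, 3 fell and 1 rose in Ft1ko. Ucp1 was the gene that rose, by 4.56 (SE 1.83, adjusted p = 0.0382), from 60.1 to 1415, and the brown fat list summed to 12765 and 3446, or to 3602 and 2848 without Cox7a1. The 3 that fell, Cox7a1, Ppargc1a and Prdm16, are also used by heart muscle, and Cox7a1 and Ppargc1a stand in the lists of the respiratory chain and of regulators too. None of the 10 thymocyte markers had a p in Ft1ko against WT, and they summed to 99.8 in WT and 6075 in Ft1ko. Between the mutants they summed to 13069 in Ft1ko and 292 in Ft1sm22ko, and the 1 with a p was lower in Ft1sm22ko. All 3 erythroid markers with a row rose in both mutants, with sums of 878 in WT against 3620 in Ft1ko, and 1183 against 6102 in Ft1sm22ko. Of 9 endothelial markers 2 fell in Ft1ko, and 2 rose and 3 fell in Ft1sm22ko. Of 7 smooth muscle markers 4 rose and 2 fell in Ft1ko, and 2 rose and 1 fell in Ft1sm22ko, and of 8 macrophage markers 2 rose in each mutant. Of all genes tested 16.1% fell and 19.7% rose in Ft1ko, and 16.0% fell and 16.2% rose in Ft1sm22ko. Of 8 liver markers 1 rose in Ft1ko and 2 in Ft1sm22ko. Of the skeletal muscle markers 2 of 7 tested fell in Ft1ko, and 0 of the 9 tested were called in Ft1sm22ko. The median of these 9 was -0.95, with a median SE of 1.57. The part of these cells in the values of the fatty acid genes was not tested.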

How the data were processed

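RNA of cardiac tissue was measured in 3 WT, 3 Ft1ko and 4 Ft1sm22ko mice of 1 week of age, grouped by the genotype in the labels. The authors extracted total RNA with TRIzol, made libraries with the Universal Plus mRNA-Seq kit, aligned the reads with STAR, counted them with htseq-count and fitted DESeq2 to each pair of groups. The submitters' processing notes also name StringTie and HTSeq without versions, and the build hg38, while the symbols are those of mouse. Per the file headers, the deposited signal is the mean of counts divided by size factors over both groups. The deposited log2 fold change and its standard error come from the authors' DESeq2 fit. The deposited score is the Wald statistic of that fit, with a 2-sided deposited p-value. The authors' adjusted p were not used. The authors' own comparisons are the only values analysed here, and no model was refitted to single hearts.

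These p were adjusted by Benjamini-Hochberg over all genes with a p (threshold 0.05), and 95% intervals are 1.96 SE to either side of the log2 fold change. No gene was filtered. The adjustment was tested on simulated data. Where 128, 277 and 318 genes had no p, they were left out. All 35 members were named, and of other lists at most 4 genes with the smallest p in a comparison. The members and lists were chosen with earlier results of these data known, and no test was run over a list. Whether the hearts differ in litter or batch is not stated in the labels. The depth per library is unknown, and the SE alone gives the precision of a value. Its median was 0.42, 0.33 and 0.30 over all genes tested. Lengths and overlaps of genes come from GENCODE M21 (GRCm38) and promoters from RefSeq (GRCm38.p6). Alternatives were Bonferroni, a log2 fold of at least 1, a minimum mean of 10 or 100, centring, a t distribution and, chosen after the data were seen, marker sums without their largest gene. The scripts ran under python 3.11.15 (pandas 2.3.3, numpy 2.4.6, scipy 1.17.1) and drew with matplotlib 3.10.9.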

Additional observations from a re-analysis of the deposited data

How the results depend on the processing

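No paired analysis was possible because the tables hold no value per heart, and for the same reason no heart could be left out in turn, so a result that rests on 1 library would not show. With Bonferroni in place of Benjamini-Hochberg, the members called went from 31 to 10 in Ft1ko (0 higher and 10 lower, from 4 and 27), from 11 to 4 in Ft1sm22ko (1 higher, 3 lower) and from 31 to 10 between the mutants (10 higher, 0 lower), where 4.94% and 4.04%, 3.87% and 3.75%, and 1.53% and 0.926% of all genes were higher and lower, and the genes called in the other lists from 167, 109 and 126 to 61, 39 and 22. With a t distribution on 4, 5 and 5 degrees of freedom 0 members were called in any of the 3 comparisons. Of the genes of the other lists 0 were called as well, and of all genes tested also 0. Without adjustment this t distribution gave 28, 11 and 31 members a p under 0.05. The share of all genes at that level was not counted, so these counts do not set the members apart. With a log2 fold of at least 1, 0 members remained higher in Ft1sm22ko (2 without the limit) and 0 lower in Ft1sm22ko than in Ft1ko (2 without it). Centred on the median of all genes, 1 member was lower in Ft1sm22ko than in Ft1ko, Acsl5, while Acsl4 was not called, and Cpt1a was no longer called in Ft1ko. Centred on the median of genes at a mean of 100 or more, Hadha, Echs1 and Eci2 were not called in Ft1ko, and the log2 fold change of Acsl1 in Ft1sm22ko, never called, turned from -0.04 to 0.01. Pnpla2 was called in Ft1sm22ko when genes with a mean under 10 or under 100 were left out and when centred on all genes. The medians of the members kept their sign, at -1.39 to -1.69 in Ft1ko, -0.39 to -0.50 in Ft1sm22ko and 1.28 to 1.35 between the mutants. By coding length, a choice made after the data were seen, the share of Acsl1 was 92.3% in WT, 66.0% in Ft1ko and 88.0% in Ft1sm22ko.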

Other observations

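Slc27a6, a fatty acid transport protein, had the widest difference between the mutants among 9 other lipid carriers. Its mean was 15.2 normalized counts in WT and 751 in Ft1ko, a log2 fold change of 5.63 with a SE of 2.16 in the authors' deposited DESeq2 table (adjusted p = 0.0294). In Ft1sm22ko it was 0.04 (SE 1.25, adjusted p = 0.983), and the mutants differed by -5.62 (adjusted p = 1.36e-04). Among 6 genes of ketone body use, Oxct1, which opens the use of ketone bodies, went from 6739 to 1712 in Ft1ko, a log2 fold change of -1.98 (adjusted p = 2.50e-05), and from 9050 to 4037 in Ft1sm22ko, a log2 fold change of -1.16 (adjusted p = 9.66e-04). Slc22a5, the carnitine transporter of the plasma membrane, went from 404 to 165 in Ft1ko (log2 fold change -1.29, adjusted p = 3.27e-05) and from 546 to 281 in Ft1sm22ko (-0.96, adjusted p = 3.44e-04).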
